A study of Mus musculus with 14 samples.

Results

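Tmigd1, Mall, Ddx4, Tuba8, Syt10, Avil, Plek2, Clec2h, Tarm1 and Antxr1 are 10 mouse genes, most of them known from epithelium, germ cells, neurons, blood precursors or vessels. They were chosen by measured values, the array signals of the probes, because these were far larger in peritoneal macrophages of mice given interleukin-4 complex than in macrophages of mice that had not received it. They are 10 of 20346 genes measured, each through 1 probe, and all 10 passed the filter on dim probes. The choice used the signals of 2 pairs of groups, IL-4c with PBS and Thio+IL-4c with Thio. Differences within those pairs are therefore given as descriptions with no test, and only the comparisons of elicited with resident cells are tested for these genes. Those comparisons use the same arrays, so they are not separate from the choice.

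The study profiled peritoneal cells of C57BL/6 mice, sorted for CD11b and for the macrophage antigen that Adgre1 encodes, on single-colour arrays, 14 arrays in 4 groups. The IL-4c group (4 arrays) had received 5 µg of IL-4 bound to 25 µg of the antibody 11B11, and the PBS group (3 arrays) had received the vehicle alone, although its sample titles call it untreated. The Thio+IL-4c group (4 arrays) had received 2 ml of 4% thioglycollate together with the same complex, and the Thio group (3 arrays) the thioglycollate alone. All injections were intraperitoneal, and the cells of the IL-4c and PBS groups are called resident and those of the thioglycollate groups elicited. Nothing in the labels says whether replicates were separate mice or pools, so p-values measure the spread between these samples.

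IL-4 signals in macrophages through its receptor and the transcription factor STAT6, and binding to the antibody prolongs its activity in the animal. The cells take on the alternatively activated state, whose usual marks are enzymes and secreted proteins such as arginase 1 and Ym1. Resident peritoneal macrophages divide under IL-4, while thioglycollate broth draws in monocytes that become macrophages in the cavity. The 10 genes are not part of that usual set. Tmigd1 and Mall encode membrane proteins of epithelia, Ddx4 the germ-cell RNA helicase Vasa, and Tuba8 an unusual alpha tubulin. Syt10 encodes a synaptotagmin, Avil and Plek2 proteins bound to actin, Clec2h and Tarm1 immune-type surface proteins, and Antxr1 a receptor for matrix and anthrax toxin. Tarm1 is itself a gene of myeloid cells, so the description as a gene of another tissue does not apply to it.

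Start-site sequences are shown for 6 genes, 5 that span the range of CG content among the 10 and 1 that held a searched motif. Of the 10 genes, 9 had a start-site window in the RefSeq table of GRCm38.p6. Each run below is the 250 bases before the start, read 5′ to 3′ on the gene's own strand, with every CG pair in capitals. Ddx4 lies at chr13:112652311-112652560 on the minus strand, Syt10 at chr15:89841861-89842110 on the minus strand and Tuba8 at chr6:121210484-121210733 on the plus strand. Tarm1 lies at chr7:3502625-3502874 on the minus strand and Clec2h at chr6:128662135-128662384 on the plus strand.
Ddx4: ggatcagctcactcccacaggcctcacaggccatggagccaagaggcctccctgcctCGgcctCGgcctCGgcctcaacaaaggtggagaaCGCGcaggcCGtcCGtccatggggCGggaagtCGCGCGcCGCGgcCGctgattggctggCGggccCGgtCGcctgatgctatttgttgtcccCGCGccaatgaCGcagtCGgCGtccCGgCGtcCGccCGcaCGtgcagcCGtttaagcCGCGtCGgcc
Syt10: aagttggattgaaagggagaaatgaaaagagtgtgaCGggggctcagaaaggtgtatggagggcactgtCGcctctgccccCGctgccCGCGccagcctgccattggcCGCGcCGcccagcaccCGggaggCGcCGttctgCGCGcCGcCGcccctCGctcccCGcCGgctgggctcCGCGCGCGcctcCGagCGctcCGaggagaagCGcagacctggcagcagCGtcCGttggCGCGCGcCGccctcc
Tuba8: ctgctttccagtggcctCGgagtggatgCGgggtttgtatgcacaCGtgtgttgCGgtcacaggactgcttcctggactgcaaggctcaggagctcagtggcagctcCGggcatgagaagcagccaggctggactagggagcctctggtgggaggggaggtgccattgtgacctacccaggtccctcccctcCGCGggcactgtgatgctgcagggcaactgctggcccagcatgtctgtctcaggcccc
Tarm1: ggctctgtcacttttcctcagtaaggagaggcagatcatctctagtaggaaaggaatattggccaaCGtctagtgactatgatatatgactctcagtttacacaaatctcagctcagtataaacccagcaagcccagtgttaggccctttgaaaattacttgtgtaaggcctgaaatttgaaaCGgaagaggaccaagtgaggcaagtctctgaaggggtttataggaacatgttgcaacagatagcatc
Clec2h: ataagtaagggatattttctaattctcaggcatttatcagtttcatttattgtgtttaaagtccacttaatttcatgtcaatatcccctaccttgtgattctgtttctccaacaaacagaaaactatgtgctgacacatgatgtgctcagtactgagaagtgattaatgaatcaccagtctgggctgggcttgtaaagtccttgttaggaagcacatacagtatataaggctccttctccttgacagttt
The run of Ddx4 held 31 CG pairs and that of Syt10 held 32. Tuba8 had 7, Tarm1 had 2 and Clec2h had 0. Among the others, Plek2 had 23, Mall 11 and Avil 1, and Tmigd1 had 4 and 3 at its alternative starts. The median over 32851 windows in the table was 6, so the genes lie on both sides of it.

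A STAT6-type motif, TTCNNNNGAA, was searched on both strands of the 300 bases around each start. It was present in 1 of the 10 windows of these genes, against 6.95% of all windows. The match was in the window of the downstream start of Tmigd1, at position -224 relative to that start (chr11:76901909-76902158, plus strand), and is in capitals here.
Tmigd1: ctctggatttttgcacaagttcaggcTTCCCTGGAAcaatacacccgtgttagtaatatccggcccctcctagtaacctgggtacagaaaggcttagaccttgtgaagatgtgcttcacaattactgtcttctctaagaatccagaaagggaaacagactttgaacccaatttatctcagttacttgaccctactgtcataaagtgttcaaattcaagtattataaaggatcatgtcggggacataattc
The related motif TTCNNNGAA has a spacer shorter by 1 base, and a stretch may hold both. It was in none of the 10 windows and in 8.3% of all windows. The PU.1-type motif GAGGAAGT was in 1, that same Tmigd1 window, and in 3.2% of all windows. It began at position 30 after that start, outside the bases printed above. A match is only a run of letters, and its absence refers to these 300 bases alone.

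Signals are given as the scanner software's processed intensities, and levels as log2 of that intensity relative to the 75th percentile of the same array. That percentile was 3050.8 to 3865.6 on the IL-4c arrays and 1271.0 to 1810.5 on the PBS arrays, 2036.4 to 2536.6 on the Thio+IL-4c arrays and 2285.9 to 3571.4 on the Thio arrays. The share of probes well above background ran between 79.2% and 95.7% over the arrays. The array labelled Thio 1 stood apart. Across genes its levels correlated at 0.85 and 0.867 with the other Thio arrays, which correlated at 0.985 with each other, and at 0.918 to 0.931 with the PBS arrays. It also shared a slide and scan with all PBS and IL-4c arrays, whereas Thio 2, Thio 3 and the Thio+IL-4c arrays were on another slide with its own scan. Values are therefore also given without Thio 1 and with the slide as a block. In a block fit the elicited and resident cells are linked only through Thio 1. The markers of the sort were bright in every group: Adgre1 had a mean level of 6.27 in IL-4c cells and 6.55 in PBS cells, and 3.54 in Thio+IL-4c cells and 4.73 in Thio cells. Fewer cells of a type and less RNA per cell cannot be told apart in such bulk samples.

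In resident cells, all 10 genes were brighter with the complex than with PBS, and on no gene did the arrays overlap. Of all genes, 26.3% had IL-4c arrays that lay wholly above the PBS arrays, and nothing is read from the count of these 10, which were chosen for it. Their differences ranged between 3.66 for Tarm1 and 9.30 for Tmigd1 on the log2 scale. For Tuba8, Avil, Plek2, Clec2h, Tarm1 and Antxr1 no PBS array was well above background, so the size of their differences depends on how background was removed. In the authors' deposited table of log2 values, made with a background correction that no source used here states, the differences of these 6 genes lay between 0.41 for Tarm1 and 2.84 for Avil. The choice had no stated threshold: 92 genes (0.452%) were at least 16-fold higher in the fit, and 9 of the 10 are among them, all but Tarm1.

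In elicited cells the same genes went apart from each other. Ddx4, Tuba8 and Tarm1 were far brighter in Thio+IL-4c than in Thio cells. Avil, Tmigd1, Mall, Clec2h, Plek2 and Antxr1 had mean differences between 1.06 and 2.42, and Syt10 was lower by 5.18 on the log2 scale. The arrays of Thio+IL-4c lay wholly above those of Thio for 6 of the 10 genes, wholly below for Syt10, and overlapped for Tmigd1, Plek2 and Clec2h. Among all genes 21.9% lay wholly above and 22.6% wholly below.

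**Figure D1:**
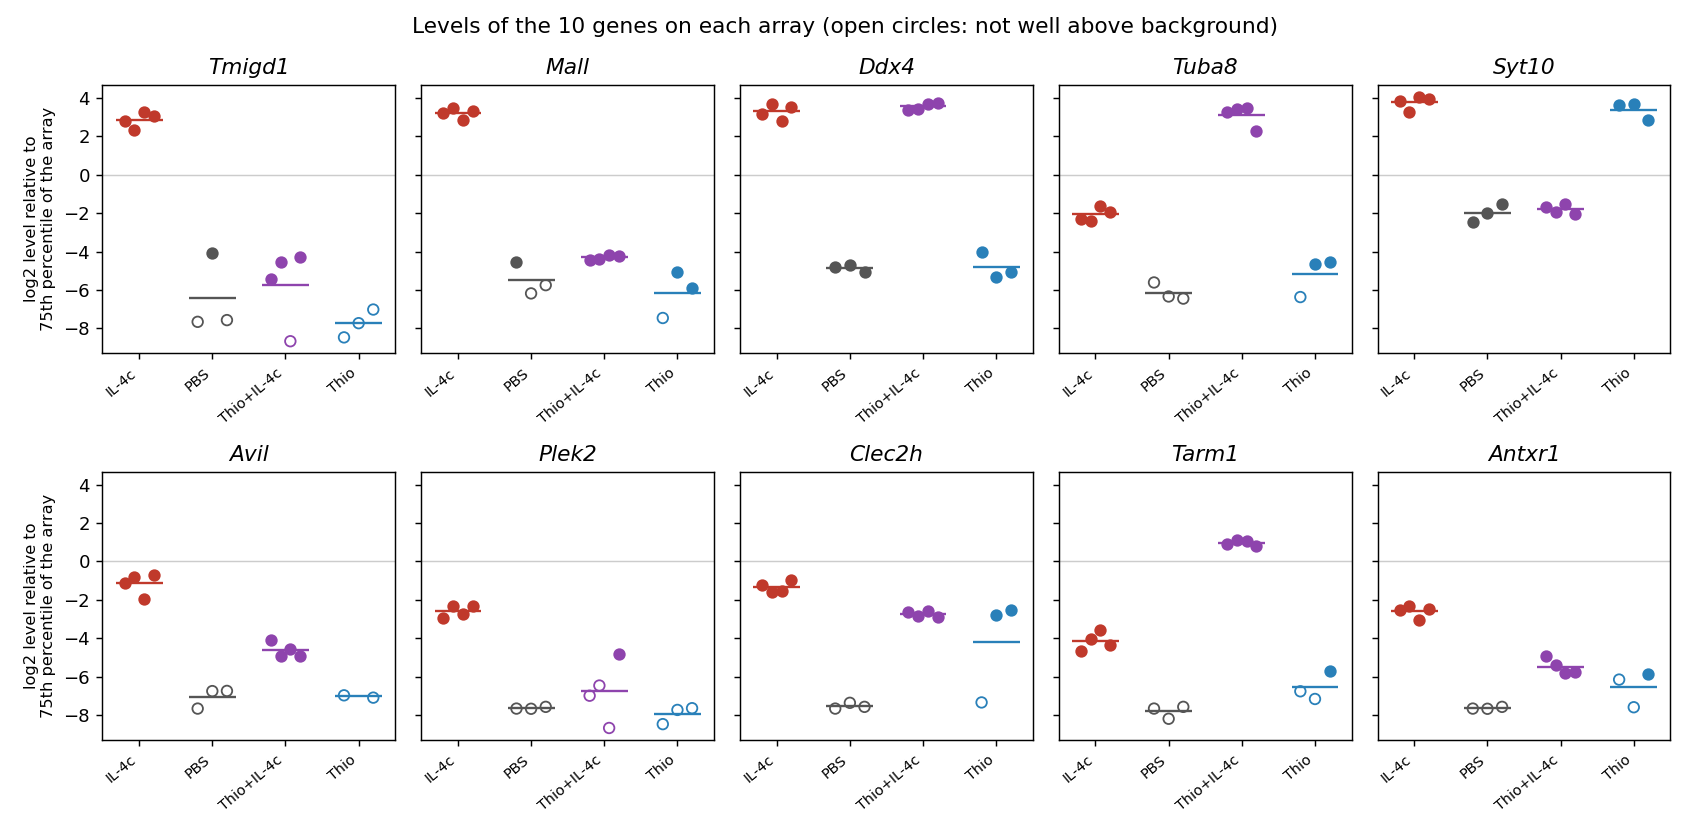
Level of each of the 10 genes on every array (log2 relative to the array's 75th percentile), by group, with the group mean as a line and open circles where the probe was not well above background. Ddx4 sits high in both groups given IL-4c, Tuba8 and Tarm1 sit highest in Thio+IL-4c, Syt10 sits high in IL-4c and in Thio, and the other genes sit highest in IL-4c.

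Tmigd1 encodes an immunoglobulin-domain adhesion protein of kidney and intestinal epithelium. Its processed signal was 23455, 19731, 31120 and 25206 on the IL-4c arrays, against 9, 107 and 7 on the PBS arrays. In elicited cells it was 48, 110, 5 and 107 on the Thio+IL-4c arrays, against 6, 16 and 28 on the Thio arrays. Only the IL-4c arrays were bright, and the other 3 groups overlapped one another. The mean level was 2.86 ± 0.39 in IL-4c cells (SD, n = 4) and -6.43 ± 2.04 in PBS cells (n = 3). The PBS value rests on 1 array, the only one of 3 well above background. No Thio array was well above background, and a bound on the processed signals put the Thio+IL-4c mean 2.86-fold above the Thio mean. It does not set the groups apart, as only 3 of 4 Thio+IL-4c arrays were well above background. Thio+IL-4c 3, at a level of -8.67, lay below every Thio array. In the authors' deposited table the difference was 0.52 on the log2 scale. Such bounds set the brighter group's mean against the higher of the dim probe's own level and the lowest level well above background on each array. Here and below they hold for group means on the processed signals only. The authors' deposited table gave less than some of them, 1.58 for Plek2 and 0.41 for Tarm1 on the log2 scale in IL-4c versus PBS.

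Mall encodes a MAL-type proteolipid of membrane rafts, best known from epithelium and endothelium. The signal was 31088, 42733, 23207 and 30759 on the IL-4c arrays, against 76, 25 and 24 on the PBS arrays. It was 94, 123, 115 and 113 on the Thio+IL-4c arrays, against 13, 103 and 60 on the Thio arrays. As for Tmigd1, the IL-4c arrays stood alone, and the other groups were near background. The 4 Thio+IL-4c arrays lay close together at a mean level of -4.31 ± 0.11 (n = 4), against -6.15 ± 1.21 in Thio cells (n = 3), a difference of 1.84, or 1.18 without Thio 1.

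Both genes were lower in Thio+IL-4c than in IL-4c cells in limma's fit over all genes. Tmigd1 fell by 8.59 on the log2 scale (SE 0.98, adjusted p = 1.9e-05), and the slide block gave -9.69 (adjusted p = 0.0049). Mall fell by 7.52 (SE 0.45, adjusted p = 1.2e-07), and the block gave -9.49 (adjusted p = 2.9e-06). These are 2 of 6 genes of the 10 that were lower in that comparison, while Tuba8 and Tarm1 were higher and Ddx4 and Clec2h did not pass. Of all genes, 42.1% were lower and 27.9% were higher, 70.0% in all, so 8 calls among 10 genes is near the share of all genes. The median difference was -3.18 over the 10 genes and -0.21 over all genes. Neither the counts nor this median is read as a result, since signals on these arrays chose the genes. Where the PBS and Thio levels of a gene were alike, its difference nearly repeats the gap between the responses to the complex that chose it. For Avil the difference was -3.48 and that gap was -3.49. Without Thio 1, which moves only the shared estimate of spread here, 7 genes were lower and 2 higher, and with the slide as a block 7 and 3, against 14.5% and 12.3% of all genes under that block. Without Thio 1 the shares of all genes were 44.8% lower and 30.8% higher.

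**Figure D2:**
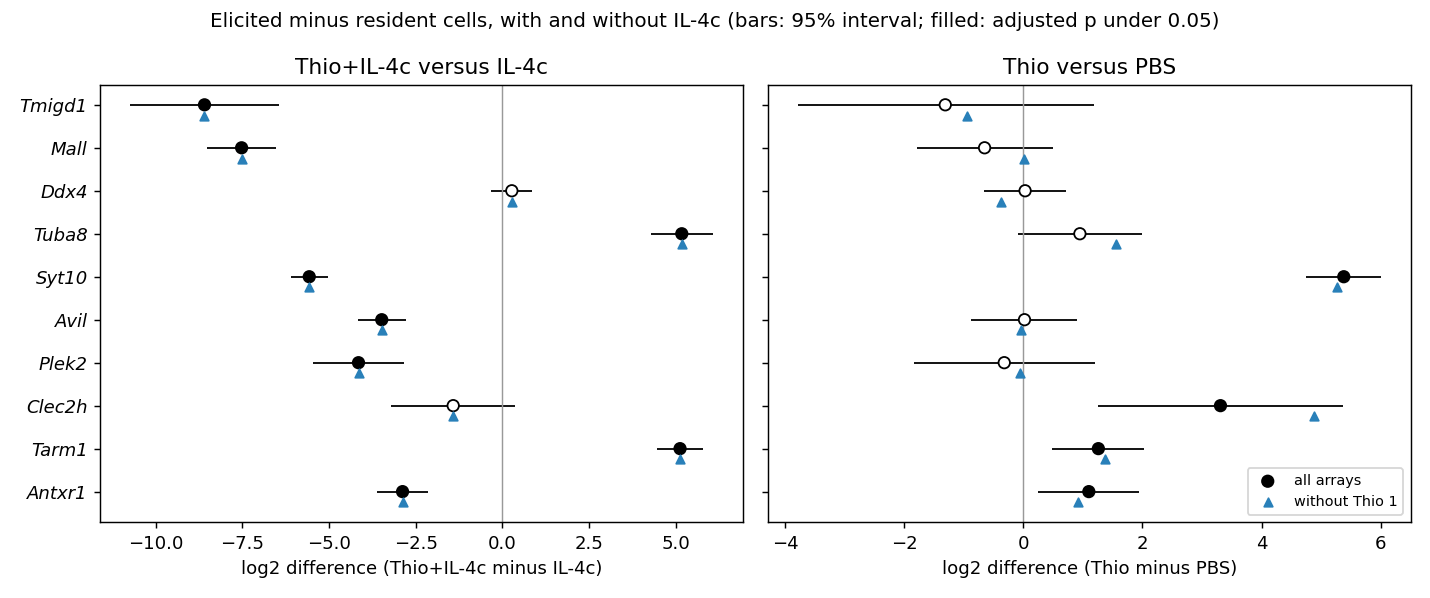
Difference between elicited and resident cells for each gene (log2), with IL-4c on the left (Thio+IL-4c minus IL-4c) and without it on the right (Thio minus PBS); circles use all arrays with 95% intervals and are filled where the adjusted p was under 0.05, and triangles leave out Thio 1. Tmigd1 and Mall lie furthest to the left of 0 under IL-4c and Tuba8 and Tarm1 furthest to the right, whereas without IL-4c Syt10 is the furthest from 0 with all arrays.

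Ddx4, or Vasa, is an RNA helicase used as the defining marker of germ cells. Its signal was 30761, 49286, 22702 and 34698 on the IL-4c arrays, against 66, 71 and 39 on the PBS arrays. It was 21361, 27548, 27089 and 27912 on the Thio+IL-4c arrays, against 142, 85 and 107 on the Thio arrays. The probe was well above background on all 14 arrays, and both groups with the complex were bright whatever the origin of the cells. The rise was 8.13 (SE 0.29) in resident and 8.37 (SE 0.29) in elicited cells, or 8.77 without Thio 1. Levels were 3.56 ± 0.17 in Thio+IL-4c and 3.29 ± 0.38 in IL-4c cells (n = 4 each), and these arrays overlapped. The difference of 0.27 (SE 0.27) had a 95% interval of -0.32 to 0.86 and did not pass (limma adjusted p = 0.39). With the slide as a block it was 1.46 and passed (adjusted p = 0.012). The Thio and PBS levels were -4.81 ± 0.71 and -4.83 ± 0.19 (n = 3 each), a difference of 0.03 with an interval of -0.66 to 0.71.

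Tuba8 encodes an alpha tubulin that differs in sequence from the common forms and is known from brain, muscle and testis. Its signal was 697, 725, 1062 and 784 on the IL-4c arrays, against 37, 22 and 15 on the PBS arrays. It was 19412, 26717, 23293 and 10460 on the Thio+IL-4c arrays, against 28, 140 and 154 on the Thio arrays. The complex thus went with a bright signal in both kinds of cell, and the elicited cells were the brighter. No PBS array was well above background, and IL-4c cells were at least 16.8-fold higher on the processed signals. The authors' deposited table gave 1.87 on the log2 scale. Tuba8 was 36.0-fold higher in Thio+IL-4c than in IL-4c cells, or 5.17 on the log2 scale (SE 0.41, adjusted p = 1.1e-06), with 3.39 under the slide block (adjusted p = 0.0015). Without the complex the difference between Thio and PBS cells was 0.95 (SE 0.48, adjusted p = 0.12). That comparison rests on Thio 1, which lay at -6.37 while Thio 2 and Thio 3 lay at -4.64 and -4.54, and without it the difference was 1.55 (adjusted p = 0.0037). With the slide as a block it was -0.23 (adjusted p = 0.78), so slide and thioglycollate cannot be told apart for Tuba8.

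Avil encodes advillin, an actin-bundling protein of the villin family found in sensory neurons and tuft cells. Its signal was 1563, 2186, 851 and 1882 on the IL-4c arrays, against 9, 17 and 12 on the PBS arrays. It was 120, 84, 89 and 71 on the Thio+IL-4c arrays, against 18 and 26 on Thio 1 and Thio 3, the spot on Thio 2 having been left out for an outlier mark. The groups with the complex did not overlap those without it. No array without the complex was well above background, so the rise on the processed signals was at least 51.5-fold in resident and at least 4.88-fold in elicited cells. In the authors' deposited table the differences of Avil were 2.84 in resident and 0.15 in elicited cells on the log2 scale. The Thio+IL-4c minus IL-4c difference was -3.48 (SE 0.31, adjusted p = 5e-06), and -3.35 under the slide block (adjusted p = 0.0073).

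Plek2 encodes pleckstrin 2, which links membrane lipids to actin and is needed in red cell precursors. Its signal was 440, 767, 481 and 615 on the IL-4c arrays, against 9, 9 and 7 on the PBS arrays. It was 16, 29, 5 and 75 on the Thio+IL-4c arrays, against 6, 16 and 18 on the Thio arrays. Only IL-4c arrays were clearly bright, at least 23.8-fold above PBS cells on the processed signals. The authors' deposited table gave 1.58 on the log2 scale. Of 4 Thio+IL-4c arrays 1 was well above background. The Thio+IL-4c minus IL-4c difference was -4.15 (SE 0.60, adjusted p = 0.00011), and -4.94 under the block (adjusted p = 0.013).

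Syt10 encodes a calcium sensor of vesicle release, known in mouse from neurons of the olfactory bulb. Its signal was 47934, 37864, 53241 and 46971 on the IL-4c arrays, against 331, 460 and 442 on the PBS arrays. It was 637, 664, 730 and 519 on the Thio+IL-4c arrays, against 28207, 44861 and 25990 on the Thio arrays. Every array was well above background, the PBS arrays included, so the description of a level near background does not hold for Syt10. The complex went with a higher signal in resident cells and a lower signal in elicited cells, and in neither pair did the arrays overlap. The differences were 5.76 (SE 0.27) in resident and -5.18 (SE 0.27) in elicited cells, and -5.07 without Thio 1.

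Elicited and resident cells were also compared for Syt10. The gap between those differences equals, by arithmetic, the gap between the responses to the complex that chose the gene, so they are no separate evidence of the reversal. Syt10 was 41.5-fold higher in Thio than in PBS cells, 5.38 on the log2 scale (SE 0.29, adjusted p = 6.5e-08). It was 5.26 without Thio 1 (adjusted p = 2.9e-07), and Thio 1 alone, on the slide of the PBS arrays, was 5.61 above the PBS mean. Under IL-4c it was lower in elicited cells, with a difference of -5.57 (SE 0.25, adjusted p = 1.3e-08), or -5.22 with the slide as a block (adjusted p = 3.8e-05). Levels ran at 3.77 ± 0.33 in IL-4c cells (n = 4) and -1.98 ± 0.46 in PBS cells (n = 3), and at -1.79 ± 0.23 in Thio+IL-4c cells (n = 4) and 3.39 ± 0.46 in Thio cells (n = 3). The high pair overlapped each other and so did the low pair.

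Clec2h encodes a C-type lectin-related protein found on mouse intestinal epithelium and bound by a receptor of the Nkrp1 family. Its signal was 1457, 1292, 1110 and 1565 on the IL-4c arrays, against 9, 11 and 7 on the PBS arrays. It was 326, 350, 355 and 283 on the Thio+IL-4c arrays, against 14, 510 and 615 on the Thio arrays. IL-4c cells were at least 53.0-fold higher than PBS cells on the processed signals, while the authors' deposited table gave 2.68 on the log2 scale. Thio 1 was at background while Thio 2 and Thio 3 were not. Without Thio 1 the Thio+IL-4c minus Thio difference was -0.09, against 1.47 with it, so the place of Clec2h among genes higher with IL-4c in elicited cells rests on that array.

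The other comparisons of Clec2h rest on Thio 1 too. It was higher in Thio than in PBS cells by 3.31 (SE 0.94, limma adjusted p = 0.015) and by 4.88 without Thio 1 (adjusted p = 1.5e-08). On the processed signals the Thio mean was at least 7.16-fold higher over all arrays. In the authors' deposited log2 table the difference was 0.72 (limma adjusted p = 0.085). With the slide as a block, where Thio 1 is the only Thio array beside PBS, the difference was 0.19 (adjusted p = 0.63). All 6 arrays of the slide that held Thio 2 and Thio 3 lay between -2.91 and -2.54, so slide and thioglycollate cannot be told apart for Clec2h. Thio+IL-4c arrays lay wholly below IL-4c arrays, with a difference of -1.42 that did not pass in the fit of all arrays (SE 0.81, 95% interval -3.20 to 0.36, adjusted p = 0.14). It passed without Thio 1 (adjusted p = 6e-06), and with the slide as a block it was -6.10 (adjusted p = 4.2e-07).

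Tarm1 encodes an activating receptor of myeloid cells that signals with the Fc receptor gamma chain. Its signal was 136, 238, 270 and 149 on the IL-4c arrays, against 9, 6 and 7 on the PBS arrays. It was 3790, 5541, 4408 and 3701 on the Thio+IL-4c arrays, against 21, 24 and 68 on the Thio arrays. As for Tuba8, the complex went with a higher signal in both kinds of cell and elicited cells were far brighter. With no PBS array above background, the rise of Tarm1 in resident cells was at least 8.23-fold on the processed signals. In the authors' deposited table it was 0.41 on the log2 scale. Tarm1 was 34.8-fold higher in Thio+IL-4c than in IL-4c cells, 5.12 on the log2 scale (SE 0.30, adjusted p = 1.1e-07), and 4.80 with the slide as a block (adjusted p = 0.00026).

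Antxr1 encodes a collagen-binding receptor that anthrax toxin uses, described on tumour vessels and stroma. Its signal was 585, 776, 391 and 547 on the IL-4c arrays, against 9, 9 and 7 on the PBS arrays. It was 67, 61, 38 and 38 on the Thio+IL-4c arrays, against 32, 18 and 62 on the Thio arrays. IL-4c arrays were alone in being bright, at least 23.6-fold above PBS on the processed signals. The authors' deposited table gave 1.55 on the log2 scale. In levels, the Thio+IL-4c arrays lay wholly above the Thio arrays, although their raw signals did not, because each array was scaled to its own 75th percentile. Antxr1 was lower in Thio+IL-4c than in IL-4c cells, with a difference of -2.88 (SE 0.34, adjusted p = 2.3e-05) and of -2.31 under the block (adjusted p = 0.027).

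Without IL-4c, 4 of the 10 genes were higher in Thio than in PBS cells by limma and 0 were lower, also at an unadjusted p under 0.05. Among all genes 20.2% were higher and 24.3% lower. Nothing is read from the counts of these 10, which were chosen for rises from a level near background. For Tuba8, Avil, Plek2, Clec2h, Tarm1 and Antxr1 no PBS array was well above background, which left little room for a lower call. The 4 were Syt10 and Clec2h, described above, and Tarm1 and Antxr1 near background. Tarm1 differed by 1.26 (SE 0.35, adjusted p = 0.014) and by 1.37 without Thio 1 (adjusted p = 0.011). Antxr1 was 2.14-fold higher (log2 SE 0.39, adjusted p = 0.039) and differed by 0.91 on the log2 scale without Thio 1 (adjusted p = 0.083). Only Thio 3 was well above background for either gene, so no lower bound holds for them. With dim PBS levels counted as the lowest level well above background, the Thio mean came to 1.56-fold for Tarm1 and 1.54-fold for Antxr1. In the authors' deposited log2 table both differences were -0.60, in the other direction, and the Antxr1 arrays of Thio and PBS overlapped. The block called Syt10 higher and Mall lower (-1.97, adjusted p = 0.013). Tmigd1, Avil and Plek2 had differences of -1.31, 0.02 and -0.32, with intervals of -3.79 to 1.18, -0.87 to 0.90 and -1.84 to 1.21. No Thio array was well above background for them, and no PBS array for Avil or Plek2, so these intervals describe dim values.

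The difference between the responses of elicited and resident cells summarises these patterns, as a description, since both responses entered the choice. It was -10.94 for Syt10 (SE 0.38), -7.29 for Tmigd1 (SE 1.5), -6.87 for Mall (SE 0.69) and -4.73 for Clec2h (SE 1.24). It was -3.98 for Antxr1 (SE 0.52), -3.83 for Plek2 (SE 0.92) and -3.49 for Avil (SE 0.51). For Ddx4 it was 0.24 (SE 0.41), for Tarm1 3.86 (SE 0.46) and for Tuba8 4.22 (SE 0.63). Without Thio 1 the values for Ddx4 and Clec2h were 0.64 and -6.29. The genes therefore held 3 kinds of response, larger in resident cells, alike in both and larger in elicited cells, with Syt10 of opposite sign.

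Within the IL-4c group the genes did not all follow the same array. IL-4c 2 was the highest array for Mall, Ddx4 and Antxr1 and the lowest for Tmigd1, Tuba8, Syt10 and Clec2h. IL-4c 3 was the highest for Tmigd1, Tuba8, Syt10 and Tarm1 and the lowest for Mall, Ddx4, Avil and Antxr1. These arrays spanned 0.62 to 1.23 per gene, far less than any of the 10 differences from PBS.

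Across the 14 arrays the genes whose levels were most like these, by Pearson's r, repeat the grouping. Tuba8 and Tarm1 were most like each other (r = 0.988), followed by Fbp1, a gluconeogenic enzyme, for Tuba8 (r = 0.984) and Cdh1, the epithelial adhesion protein E-cadherin, for Tarm1 (r = 0.986). Plek2 was most like Tmigd1 (r = 0.965), and Tmigd1 was most like Rmdn3 (r = 0.967). On PBS 1, PBS 3, Thio 1, Thio 2 and Thio+IL-4c 3, Plek2 and Tmigd1 had identical processed signals that were not well above background. Their r therefore rests in part on equal dim values. Avil, Clec2h, Tarm1 and Antxr1 shared that signal on PBS 1, and such values also enter the SDs and SEs of dim groups. Mall was most like Me2, the mitochondrial malic enzyme (r = 0.985), and Mrnip (r = 0.983). Ddx4 was most like Atf5, a stress-response transcription factor (r = 0.996), and Rnase2a, an eosinophil-type ribonuclease (r = 0.993). Rnase2a had a mean level of 6.32 in IL-4c and 0.61 in PBS cells, and of 7.31 in Thio+IL-4c and 0.13 in Thio cells.

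Genes most like Syt10 had the same crossing on a small scale. Commd10 (r = 0.982) had mean levels of 1.63 in IL-4c and 0.90 in PBS cells and 0.90 in Thio+IL-4c and 1.60 in Thio cells. Minpp1, an inositol phosphatase, followed (r = 0.981). Avil was most like Efcab11 (r = 0.988, 13 arrays) and Dsn1, a kinetochore protein (r = 0.984). Clec2h was most like the kinase gene Mapk13 (r = 0.986) and Prrx2 (r = 0.975), and Antxr1 most like Rttn (r = 0.978) and Naaa (r = 0.973). The arrays share group, slide and signal scale, so these r values only rank likeness.

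The genes on either side were compared next, with 2 measured protein-coding genes on each side of each of the 10, or 40 neighbours. IL-4c versus PBS called 13 of the 40 higher and 4 lower by limma, so 32.5% were higher, against 16.8% of all genes higher and 15.4% lower. Thio+IL-4c versus Thio called 12 higher and 7 lower, 30.0% and 17.5%, against 16.3% and 23.0%. Without Thio 1 the counts in elicited cells were 15 and 6, and 17 and 4 in resident cells. The medians were 0.52 in resident and 0.40 in elicited cells. The 10 genes were chosen for large rises, so no comparison of their size with these medians is drawn.

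Only 3 neighbours rose by 4-fold or more in resident cells. Mal, a raft proteolipid next to its relative Mall, rose by 4.95 (SE 1.0, adjusted p = 0.0021), with 4 of 4 IL-4c and 1 of 3 PBS arrays well above background. Bub1, a spindle checkpoint kinase beyond Mall on the other side, rose by 4.24 (SE 0.26, adjusted p = 2.5e-07). Plekhh1, near Plek2, rose by 3.21 (SE 0.36, adjusted p = 3.1e-05). The proliferation marker Mki67 had mean levels of 5.11 in IL-4c and 1.58 in PBS cells, and of 2.76 in Thio+IL-4c and -0.32 in Thio cells; the part of dividing cells in these values was not tested.

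Closest neighbours often did not follow. Beside Avil, Ctdsp2 fell by 1.95 (adjusted p = 2.6e-06) in resident cells while Tsfm rose by 1.69 (adjusted p = 1.8e-06). Beside Ddx4, Slc38a9 fell by 0.51 (adjusted p = 0.010), and Il31ra, a cytokine receptor gene, rose by 3.67 in elicited cells (adjusted p = 5.2e-05) with 1.20 in resident cells (adjusted p = 0.067). Beside Clec2h, the lectin receptor genes Klrb1a and Klrb1c fell in resident cells by 1.69 (adjusted p = 0.00029) and by 2.07 (adjusted p = 0.022). Beside Tmigd1, Cpd fell by 3.21 in elicited cells (adjusted p = 1.2e-06) with a difference of 0.16 in resident cells. The neighbours of Antxr1, Tuba8 and Tarm1 had differences of -0.79 to 0.70 in resident cells, with adjusted p of 0.066 or more. In elicited cells Pex26, beside Tuba8, rose by 0.73 (adjusted p = 0.0013). Beside Tarm1, Cacng6 rose by 1.06 (adjusted p = 0.026) and Ndufa3 had -0.59 (adjusted p = 0.00059). The other neighbours of Antxr1, Tuba8 and Tarm1 did not pass there.

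**Figure D3:**
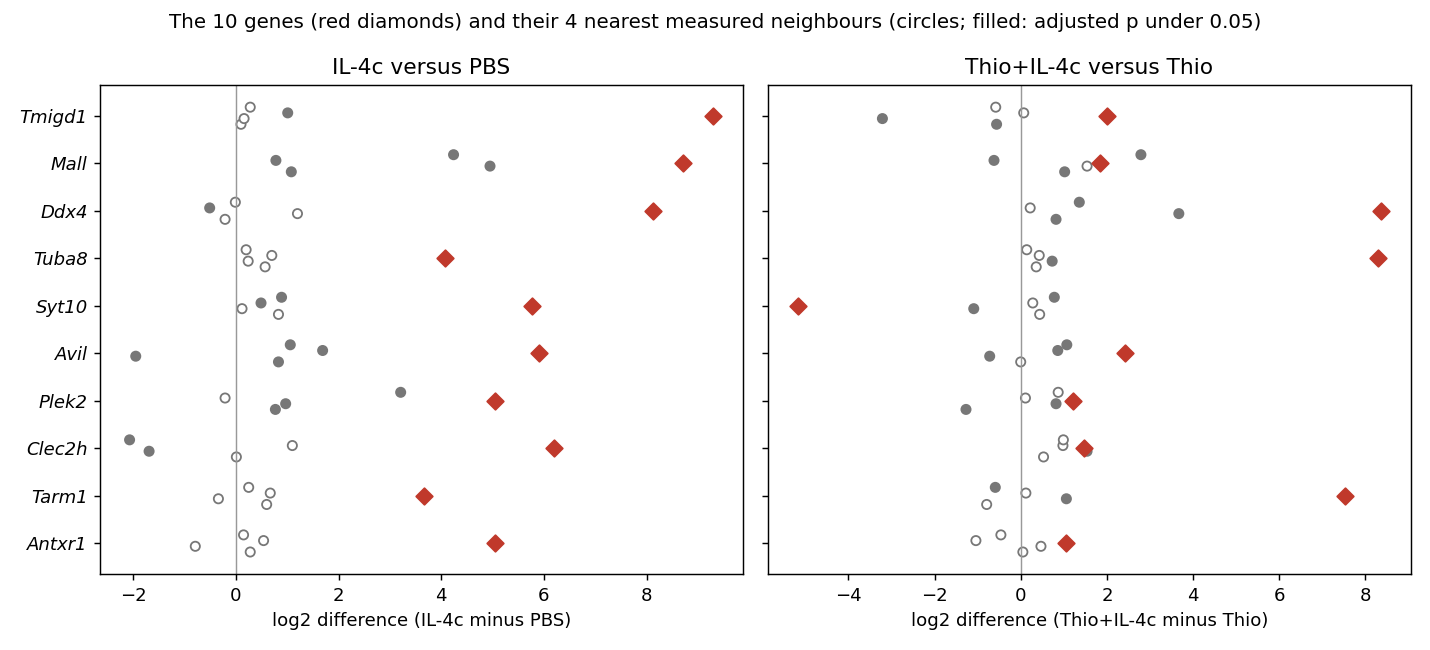
Difference with IL-4c (log2) in resident cells on the left and elicited cells on the right for each of the 10 genes (diamonds) and its 4 nearest measured protein-coding genes (circles, filled where the adjusted p was under 0.05). In resident cells every diamond lies to the right of all 4 of its neighbours, which follows from the choice of the 10 genes. Among the neighbours, only Mal, Bub1 and Plekhh1 lie above 2 in resident cells, and Klrb1c lies at -2.07. In elicited cells Bub1 and Il31ra lie above 2 and Cpd lies at -3.21.

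Relatives in sequence were compared in the same way. Of 7 alpha tubulins measured besides Tuba8, 4 were higher with IL-4c in resident cells and 4 in elicited cells, against 16.8% and 16.3% of all genes, 0 were lower in either, also unadjusted, and 3 did not pass in each comparison. The rises were small, 1.48 for Tuba1c (adjusted p = 2.6e-06) in resident and 1.41 for Tuba1a (adjusted p = 2.6e-05) in elicited cells. Of 6 MAL-type genes, Mal and Plp2 were higher in resident cells, Plp2 by 3.29 (adjusted p = 5.1e-09), and Cmtm6 fell by 0.52 (adjusted p = 0.0042). In elicited cells Plp2 was 0.80 higher (adjusted p = 0.00020), while Cmtm3 fell by 1.35 (adjusted p = 4.8e-06) and Cmtm7 by 0.63 (adjusted p = 0.00058).

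Other families had calls in both directions or few calls. Of 19 synaptotagmin-type genes besides Syt10, 1 rose and 1 fell in resident cells, Syt8 by 1.03 (adjusted p = 0.0021) and Syt11 with -1.02 (adjusted p = 2.7e-05). Without Thio 1 those counts were 3 and 4. In elicited cells 1 rose and 4 fell, or 1 and 2 without Thio 1. Of 7 villin and gelsolin genes 3 were higher in resident cells, Capg by 0.79 (adjusted p = 0.0047), Gsn and Flii, while 1 was higher and 4 lower in elicited cells. Plek, the haematopoietic pleckstrin, fell by 1.16 (adjusted p = 0.00012) in resident and by 0.78 (adjusted p = 0.0018) in elicited cells. Of 6 DEAD-box genes, Ddx43 rose by 1.14 (adjusted p = 0.0049) in resident cells, and Ddx17 and Ddx25 fell, Ddx17 by 0.54 (adjusted p = 0.0093). Without Thio 1, 3 rose and 2 fell there. In elicited cells Ddx43 rose by 1.18 (adjusted p = 0.0034) and Ddx5 by 0.32 (adjusted p = 0.028). The Y-linked Ddx3y was dim, yet a probe of the gene passed the background criterion on all 4 IL-4c arrays and on no other array. Its mean levels were -5.80 in IL-4c and -6.55 in PBS cells, a difference of 0.75 (adjusted p = 0.23, and 0.029 without Thio 1).

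Relatives and partners of the surface proteins were called lower more often than higher in resident cells, although most did not pass. Of all genes, 15.4% were lower and 16.8% higher in resident cells, and 23.0% and 16.3% in elicited cells. Among 8 genes of the leukocyte receptor complex or its adaptors, Pirb fell by 2.37 (adjusted p = 2.4e-07), Pira2 by 1.71 (adjusted p = 6e-06) and Fcer1g, the signalling chain used by Tarm1, by 1.03 (adjusted p = 0.00017) in resident cells, and 0 rose, also unadjusted. In elicited cells 4 of the 8 fell, Fcer1g by 0.89 (adjusted p = 0.00042), and Gp6 rose by 1.07 (adjusted p = 0.010). Of 2 relatives of Antxr1, Antxr2, the other anthrax toxin receptor, fell by 0.83 (adjusted p = 0.00044) in resident and by 2.03 (adjusted p = 3.6e-07) in elicited cells, and Antxrl did not pass in either. Of 10 genes of the Clec2 and Klrb1 group, Clec2l rose by 1.66 (adjusted p = 0.00026) and 3 fell in resident cells, and 2 rose and 2 fell in elicited cells.

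Markers of the tissues that usually use the 10 genes were measured to see whether they moved too. Over 5 lists with 66 genes measured, 6 were higher and 4 lower with IL-4c in resident cells (9.09% and 6.06%), and 7 higher and 14 lower in elicited cells (10.6% and 21.2%). Those shares were below the shares of all genes in each case, 16.8% and 15.4% in resident and 16.3% and 23.0% in elicited cells. Without Thio 1 the counts were 10 and 8 in resident cells and 10 and 11 in elicited cells, and the shares of all genes were 21.1% and 22.1% in resident and 20.8% and 21.2% in elicited cells.

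Among 15 germ-cell genes besides Ddx4, Stra8, the meiosis-entry gene, rose by 2.16 (adjusted p = 0.0021) and Nanos3 by 0.81 (adjusted p = 0.037) in resident cells, and Ddx25 fell by 1.22 (adjusted p = 0.0024). In elicited cells Piwil2, a partner of piRNAs, rose by 3.86 (adjusted p = 3.9e-06) and 3 fell, Dppa3 by 3.08 (adjusted p = 0.0014). The list's median was 0.05 in resident and 0.57 in elicited cells, against 8.13 and 8.37 for Ddx4, which was chosen for its rise. The summed level of these 15 genes, as a multiple of the array's 75th percentile, was 3.52 to 4.63 on the IL-4c arrays and 3.74 to 4.56 on the PBS arrays.

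Of 15 gut and kidney epithelial genes, Cdh1 was the clearest, at least 25.5-fold higher in IL-4c than PBS cells (adjusted p = 1.6e-07) and 7.06 higher on the log2 scale in Thio+IL-4c than Thio cells (adjusted p = 6.2e-09). Krt18 rose by 2.35 (adjusted p = 7.4e-05) while its partner keratin Krt8 fell, at least 5.44-fold lower in IL-4c cells (adjusted p = 0.0021) and well above background on 0 of 4 arrays. In elicited cells Vil1, Krt19 and Alpi fell. The list's medians were -0.01 and -0.22.

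None of 12 neuron genes passed in resident cells by limma, with 1 higher and 2 lower at an unadjusted p under 0.05, and 2 higher and 4 lower in the fit without Thio 1. In elicited cells Tubb3 rose by 1.54 (adjusted p = 0.043; 0.15 without Thio 1), while Map2 fell by 1.83 (adjusted p = 1.7e-05) and Syt1 had -0.91 (adjusted p = 0.024; 0.051 without Thio 1). Of 12 sensory neuron and tuft cell genes, 1 was higher and 1 lower in resident cells, and 3 were higher and 3 lower in elicited cells. Gfi1b, also a gene of blood cells, rose by 1.16 (adjusted p = 0.00075) in resident and by 2.52 (adjusted p = 1.5e-06) in elicited cells. Scn10a, a sodium channel of sensory neurons, rose by 2.18 (adjusted p = 0.042) in elicited cells. Of 12 endothelial and stromal genes, Pecam1, which leukocytes also carry, rose by 1.64 (adjusted p = 0.0017) and by 1.56 (adjusted p = 0.0021), and Dcn fell by 1.36 (adjusted p = 0.0016) in resident cells. Cdh5, the cadherin of endothelial junctions, fell by 2.75 (adjusted p = 0.0011) in elicited cells. Most of these genes had a probe well above background in every group, not always the probe that gave the level. A tissue marker at a low signal was thus common on these arrays.

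**Figure D4:**
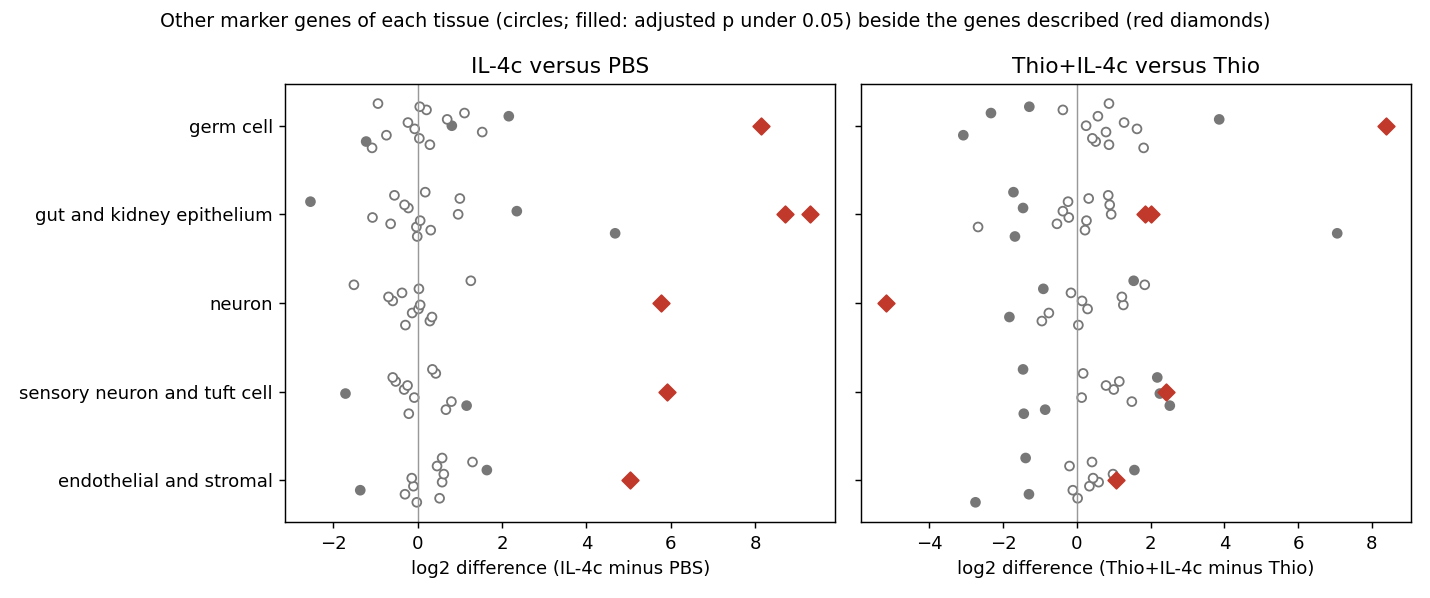
Difference with IL-4c (log2) in resident cells on the left and elicited cells on the right for marker genes of 5 tissues (circles, filled where the adjusted p was under 0.05) and for those of the 10 genes that belong to the same tissue (diamonds). In resident cells the diamonds lie to the right of every other marker of their tissue, as genes chosen for large rises would. Cdh1 is the marker furthest to the right among the circles on both sides.

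Cells that the sort could let through were followed by their own markers. Of all genes, 15.4% were lower and 16.8% higher in IL-4c versus PBS, and 23.0% and 16.3% in Thio+IL-4c versus Thio. B cell genes were lower in IL-4c than in PBS cells for 4 of 6, with summed levels of 2.31 to 2.67 on the IL-4c arrays and 8.64 to 17.1 on the PBS arrays, and T and NK cell genes for 3 of 8. Mast cell and eosinophil genes were lower for 3 of 10 and higher for Siglecf alone, neutrophil genes were lower for 2 of 7, and of 5 mesothelial genes Upk3b was lower (adjusted p = 0.037). Without Thio 1, 6 of the 10 mast cell and eosinophil genes and 5 of the 8 T and NK cell genes were lower. The share of all genes lower was then 22.1%. Of 6 macrophage genes, 4 were lower in IL-4c than in PBS cells and 0 higher, also unadjusted, with summed levels of 237 to 247 on the IL-4c arrays and 383 to 445 on the PBS arrays. Fcgr1, an Fc receptor, fell by 6.70 (adjusted p = 1.9e-07) and Cd14, a receptor for endotoxin, by 2.81 (adjusted p = 6.5e-05). In elicited cells 3 of the 6 were lower. In Thio+IL-4c against Thio cells, 2 of 7 neutrophil genes were higher, with summed levels of 5.14 to 12.9 on the Thio+IL-4c arrays and 3.50 to 4.91 on the Thio arrays. Tarm1, which neutrophils also carry, was higher in the same arrays, and the part of other cells in that was not tested.

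The size of the signals can be read against the known IL-4 genes within each gene's own probe. Arg1 had mean levels of 7.41 ± 0.13 in IL-4c and 3.35 ± 0.43 in PBS cells, and 7.32 ± 0.12 in Thio+IL-4c and 3.66 ± 0.35 in Thio cells (n = 4, 3, 4 and 3). Of the 6 genes on that list, 4 were higher and 2 lower in resident cells, and 5 were higher and 0 lower in elicited cells, also unadjusted. The mannose receptor gene Mrc1 had mean levels of 0.74 in IL-4c and 1.70 in PBS cells (adjusted p = 0.00067), and of 5.89 in Thio+IL-4c and 4.35 in Thio cells (adjusted p = 1.5e-05). Retnla, a secreted protein, had 7.46 in IL-4c and 6.91 in PBS cells (adjusted p = 0.0014), and 7.58 in Thio+IL-4c and 3.55 in Thio cells (adjusted p = 6.1e-10).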

How the data were processed

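RNA of 14 samples was measured on single-colour Agilent arrays, and each sample's group was taken from its treatment label. The authors deposited a scanner table per array with spot intensity on a linear scale, extracted with Agilent Feature Extraction 11.0.1.1 per the file headers. The submitters' processing notes give version 11.5 and limma. The authors also deposited a table of log2 values, made with a background correction not given in the sources used here. Its median was 9.2341 on every array.

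Control spots (3671 of 62976 per array) and 113 to 165 spots with an outlier mark were left out, which left 55681 probes, and no spot was saturated. Probes were named through their accession in a RefSeq table, which gave 1 symbol to 27235 probes and left 28446 unnamed. Log2 of the processed signal, already background-subtracted per the file headers, was set relative to the array's 75th percentile. Probes well above background on fewer than 3 arrays were dropped, and the brightest probe stood for its gene, which gave 20346 genes. All 14 arrays were fitted together with limma 3.58.1 in R 4.3.3, with Benjamini-Hochberg adjustment over all genes and a call at an adjusted p under 0.05, two-sided. Adjusted p-values come from that fit throughout. The number of arrays limits the precision. The fit was tested on simulated data for IL-4c versus PBS only, with independent noise and no slide effect. That simulation therefore does not bear on the comparisons of elicited with resident cells.

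The 10 genes, the gene lists and the tests were chosen with earlier results of these data known. All 10 are named. Neighbours are the 2 nearest measured protein-coding genes on each side, in the order of GRCm38.p6, whose coordinates are not printed for genes because the array files name no build. Genes most like each of the 10 are the 2 with the highest Pearson's r. The rule for lists was to name up to 3 called members with the largest change. Some that it covers are given only within counts, others were named after their values were seen, and 1 is not reported here. Alternatives were normexp (offset 50) with quantile normalization, quantile normalization alone, no filter on dim probes, the mean of a gene's probes, the authors' log2 table, array weights, the slide or the replicate number as a block, and each array left out in turn. The normexp setting used the median spot signal, because the mean signal is not in the files used here. Sequences are from RefSeq.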

Additional observations from a re-analysis of the deposited data

Results flagged for a closer look

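Syt10 was singled out because every array of IL-4c lay above the PBS arrays while every array of Thio+IL-4c lay below the Thio arrays. The response in elicited cells minus that in resident cells was -10.94 on the log2 scale. That difference between the responses was not tested, since both had entered the choice of the genes. In the groups of 4 arrays, the highest and lowest level of each of the 10 genes was also compared with the rest of its group by Dixon's criterion. By it, 0 of 20 groups held an outlying array, and Tmigd1 on Thio+IL-4c 3, at -8.67, was not called. The PBS and Thio groups, Thio 1 included, were not checked, so this says nothing about Thio 1.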

How the results depend on the processing

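The levels near background carry the limits: where a group is not well above background, a difference depends on how background was removed. Differences of 9.30 for Tmigd1, 5.05 for Plek2 and 3.66 for Tarm1 in IL-4c versus PBS were 6.52, 1.58 and 0.41 in the authors' deposited log2 table. In Thio+IL-4c versus Thio, Clec2h changed sign with the slide as a block (-0.09), with array weights (-0.13) and, over the settings that leave out an array each, lay between -0.09 and 2.31, the lowest without Thio 1. In Thio versus PBS, Tarm1 and Antxr1 were both -0.60 in the authors' table (adjusted p of 0.034 and 0.033), a reversal whose cause was not tested. There 5 of the 10 genes were lower and 1 higher, against 0 and 4. With quantile normalization 1 was lower, Mall, and with the slide block 1, Mall too. The count of 4 higher was 2 with normexp, 1 with the slide block, and 1 to 4 with an array left out, 2 without PBS 2 and 1 without Thio 3.

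Genes called in Thio versus PBS numbered 9041, but 6012 with the slide block, 15067 with array weights and between 6227 and 13876 with an array left out, the most without Thio 1. Genes called in Thio+IL-4c versus IL-4c numbered 14248 and 5436 with the slide block. The cause was not tested. Without the filter on dim probes these counts were 8990 and 14351.

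Replicate numbers did not pair the samples: over 19 pairs with the same number the correlation of deviations was -0.446 to 0.368, and 4 were over 0.1. With the replicate number as a block, 7737 genes were called in Thio versus PBS, 13714 in Thio+IL-4c versus IL-4c, 5780 in IL-4c versus PBS and 6969 in Thio+IL-4c versus Thio, and Antxr1 no longer passed in Thio versus PBS (adjusted p = 0.068). Of the counts over all genes and over the 10, 164 alternatives stayed within 1.5 times and 12 did not.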
